A study of Mus musculus with 4 samples.

Results

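The nuclear-encoded subunits of the mitochondrial respiratory chain and of the ATP synthase were examined in whole brain of wild-type and Adar2 knockout mice. They were taken from the array table by gene symbol. A transcript cluster is the unit of these arrays, a set of probes placed along one transcribed stretch of the genome. A cluster was included where any of its symbols started with Nduf, Uqcr, Cox4, Cox5, Cox6, Cox7, Cox8 or Atp5, or was Sdha, Sdhb, Sdhc, Sdhd, Cyc1 or Cycs. This gave 108 of 33793 clusters, with 91 gene symbols. Complex I was represented by 41 clusters of 36 genes, complex II by 4 clusters, complex III by 10 clusters of 9 genes, cytochrome c by 5 clusters of Cycs, complex IV by 21 clusters of 18 genes and complex V by 19 clusters of 15 genes. The remaining 8 clusters carry symbols that start alike but name no subunit of the assembled complexes in the usual sense. They are the complex I assembly factors Ndufaf1, Ndufaf2, Ndufaf3 and Ndufaf4, the supercomplex assembly factor Cox7a2l, Atp5s, Atp5sl, and Cox4nb, an older symbol of a subunit of a membrane complex of the endoplasmic reticulum.

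The respiratory chain lies in the inner mitochondrial membrane. Complexes I and II pass electrons from NADH and succinate to ubiquinone, complex III passes them on to cytochrome c, and complex IV reduces oxygen. Complexes I, III and IV pump protons, and complex V uses the proton gradient to make ATP. Most subunits are encoded in the nucleus and imported, while a small set is encoded by mitochondrial DNA, so that both genomes contribute to all complexes except complex II. Neurons draw most of their ATP from this chain, and genes of the chain have long been known to share regulators such as the nuclear respiratory factors NRF1 and GABP (an ETS factor) and YY1.

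ADAR2, encoded by Adarb1, is an enzyme that deaminates adenosine to inosine in double-stranded RNA. Adult females on the 129SV background were used, and total RNA of their whole brains was hybridised to whole-transcript Affymetrix arrays, 1 array per sample, with 2 wild-type samples and 2 samples labelled as Adar2 knockout. Per the study's methods, all mice of both genotypes were homozygous for a Gria2 allele that already carries the edited codon (Gria2 R/R), which keeps Adar2-/- mice alive, and the genotypes were offspring of the same kind of heterozygous cross. The knockout affects every cell of the body, and since the RNA came from whole brain, fewer cells of a type and less RNA per cell cannot be told apart.

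The targeted gene was lower in the samples labelled knockout. Adarb1 had log2 signals of 10.50 and 10.45 in wild type and of 9.16 and 8.96 in the knockout. The log2 fold change was -1.415 (SE 0.118), which is 2.67-fold (limma p 2.57e-05, adjusted p 0.409). With 2 arrays against 2 the exact permutation p was 0.333, the smallest that this design can give. Brain cell markers were present on all arrays, with log2 signals of 10.82 to 13.16 for 6 clusters of neuronal genes. Their log2 fold changes lay between -0.165 and 0.055, those of 5 astrocyte clusters between -0.22 and 0.005, those of 5 oligodendrocyte clusters between -0.35 and 0.125 and those of 5 microglial clusters between -0.235 and -0.01. An unadjusted limma p below 0.05 was reached by 1 oligodendrocyte cluster, lower in the knockout (0.0258), where 2.31% of all clusters were lower at this threshold. None of the neuronal, astrocyte or microglial clusters passed. Some arrays differed in markers of other tissues. The 9 anterior pituitary clusters were all above 0 in log2 fold change, with array means of 5.14 and 4.82 in wild type and of 6.09 and 5.81 in the knockout, and Prl, Gh and Pomc had an unadjusted limma p below 0.05. The 4 salivary gland clusters had a mean of 6.88 on the first knockout array and of 4.31 to 4.58 on the others, with Bpifa2 at 12.61 on that array and at 5.09 to 5.28 elsewhere. The 5 olfactory bulb clusters had a mean of 7.35 on the second knockout array and of 7.86 to 7.996 on the others. Choroid plexus markers were higher on the second wild-type array than on the first in 6 of 6 clusters (median 0.39), and blood markers were higher on the second knockout array than on the first in 6 of 6 (median 0.455). Lower in the knockout at an unadjusted limma p below 0.05 were 1 olfactory bulb cluster (0.0214) and 1 blood cluster (0.0467). The part of these tissues in the results was not tested, and the counts by unadjusted p and by direction are therefore also given without each knockout array.

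The promoters of the subunit genes were examined for sequences that the selection by symbol did not use. Of 83 genes named for subunits, 67 had promoter windows in RefSeq (build GRCm38.p6), 72 windows in all, each with 250 bases before and 50 bases after an annotated start. The NRF1 core GCGCATGC, on either strand, was found in 11 windows (15.3%, against 2.71% of all windows and 3.52% of those of protein-coding genes). The ETS core CCGGAAG was found in 16 windows (22.2%, against 8.86% and 11.6%) and the YY1 core AAGATGGC in 10 (13.9%, against 2.75% and 3.05%). The 3 cores differ from each other, and since GCGCATGC overlaps its own reverse complement, each window was counted once. At least 1 core was present for 31 of the 67 genes. The NRF1 core lay before the start in 10 genes and after it in 1, whereas the YY1 core lay after the start in 8 genes and before it in 2. The ETS core lay before the start in 13 genes and after it in 6. A match describes these letters in this window and nothing about binding.

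The 250 bases before the start are given for 4 genes, 5′ to 3′ on the strand of the gene, with core letters in capitals. Cycs (chr6:50566570-50566819, minus strand) encodes cytochrome c and had the NRF1 core, Cox6a1 (chr5:115348959-115349208, minus strand) had the NRF1 and the ETS core, and Atp5e (chr2:174464102-174464351, minus strand) and Ndufa5 (chr6:24527691-24527940, minus strand, the upstream one of 2 windows of this gene) are the genes with the lowest limma p among the members. Atp5e had the ETS core. The Ndufa5 window held none of the 3.
Cycs: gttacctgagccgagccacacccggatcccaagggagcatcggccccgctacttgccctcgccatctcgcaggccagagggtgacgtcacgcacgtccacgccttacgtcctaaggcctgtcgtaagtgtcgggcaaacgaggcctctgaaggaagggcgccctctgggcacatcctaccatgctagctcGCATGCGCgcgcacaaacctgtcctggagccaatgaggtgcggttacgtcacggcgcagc
Cox6a1: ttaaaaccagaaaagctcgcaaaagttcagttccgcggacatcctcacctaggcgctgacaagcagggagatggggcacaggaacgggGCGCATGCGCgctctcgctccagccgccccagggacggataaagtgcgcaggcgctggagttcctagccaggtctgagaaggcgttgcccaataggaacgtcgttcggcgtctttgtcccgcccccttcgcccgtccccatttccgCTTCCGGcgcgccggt
Atp5e: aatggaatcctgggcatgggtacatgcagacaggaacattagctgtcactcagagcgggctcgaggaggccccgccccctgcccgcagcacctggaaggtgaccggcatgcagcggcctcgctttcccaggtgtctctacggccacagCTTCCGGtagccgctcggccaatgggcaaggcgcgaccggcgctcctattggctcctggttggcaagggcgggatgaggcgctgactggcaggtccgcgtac
Ndufa5: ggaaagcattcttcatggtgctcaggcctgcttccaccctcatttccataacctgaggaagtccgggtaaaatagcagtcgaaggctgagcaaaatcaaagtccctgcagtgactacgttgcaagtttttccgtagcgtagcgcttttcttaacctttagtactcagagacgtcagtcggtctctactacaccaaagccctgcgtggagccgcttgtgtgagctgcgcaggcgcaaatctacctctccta

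To see whether the chain as a whole differed between the genotypes, the log2 signals of all clusters were compared with limma, and the members were read against all clusters of the array. No member passed an adjusted p of 0.05: 0 of 108 clusters against 0% of all clusters, with adjusted p-values from 0.834 upward, and a test without shrinkage of the variances gave 0 as well. An unadjusted limma p below 0.05 was reached by 2 members (1.85%), where 5.95% of all clusters passed. One of them, Ndufa5, was higher in the knockout (0.926% of members, 3.64% of all clusters) and the other, Atp5e, was lower (0.926% of members, 2.31% of all clusters). Both knockout arrays lay above both wild-type arrays in 13 members (12%, against 17.7% of all clusters) and below them in 13 members (12%, against 16.5%). The direction of the latter counts turned with the scaling of the arrays. After median centring 9 members were higher without overlap (8.33%, against 12.8% of all clusters) and 27 lower (25%, against 24.2%). After quantile normalization 20 were higher (18.5%, against 16.2%) and 7 lower (6.48%, against 17.2%), and after cyclic loess 21 were higher (19.4%, against 17.2%) and 8 lower (7.41%, against 17.1%). The p-values measure only the spread between these 4 arrays. Without the first knockout array 4 members had an unadjusted limma p below 0.05 (3.70%, against 5.33% of all clusters), and without the second there was 1 (0.926%, against 4.86%).

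The differences were small in size. The median log2 fold change (knockout minus wild type) of the 108 clusters was 0.02, against 0.005 over all clusters. It was -0.0175 after median centring, which also moved the median of all clusters to -0.035, 0.0437 after quantile normalization and 0.0522 after cyclic loess. The middle 50% of the members lay between -0.09 and 0.085, that of all clusters between -0.09 and 0.11. Values above 0 were seen for 57 members, values below 0 for 46, and 5 were at 0. This split moved with the scaling of the arrays: it was 48 above and 59 below after centring each array on its median, 66 and 42 after quantile normalization, and 67 and 41 after cyclic loess normalization. It also moved with single arrays: it was 39 above and 67 below without the first wild-type array, 61 and 46 without the second, 55 and 51 without the first knockout array, and 61 and 47 without the second. The range ran from -0.34 for Uqcrb to 0.395 for Ndufa5. The median standard error was 0.12, and the 95% confidence interval of the difference reached a median of 0.30 to either side. For all 108 members the interval lay within a 2-fold difference in either direction, which held for 98% of all clusters. It lay within a 1.5-fold difference for 94 members (87%, against 82.2% of all clusters). The widest bounds were -0.996 for Uqcrb and 0.944 for a cluster of Atp5d.

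**Figure D1:**
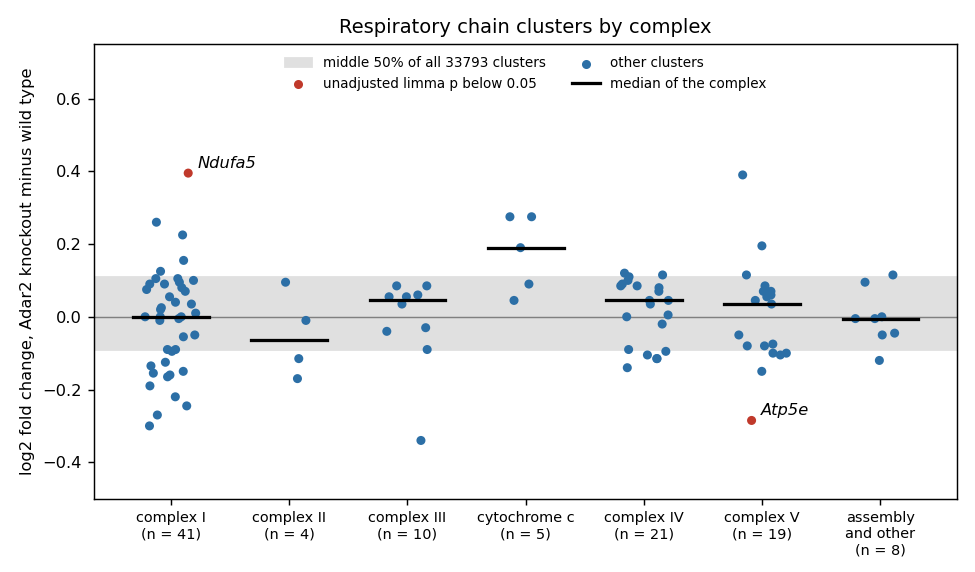
Log2 fold change of each of the 108 clusters (y axis, Adar2 knockout minus wild type, 2 arrays each) by complex (x axis). Points are clusters, black lines are medians, the grey band holds the middle 50% of all 33793 clusters, and red marks the members with an unadjusted limma p below 0.05, Ndufa5 at 0.395 and Atp5e at -0.285.

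Complex I, the NADH dehydrogenase, showed 41 log2 fold changes around a median of 0.00, with 20 above 0, 18 below and 3 at 0. The median was -0.065 without the first wild-type array and 0.03 without the second knockout array. Ndufv1, which binds NADH and FMN, had log2 signals of 10.94 and 10.98 in wild type and of 11.03 and 10.89 in the knockout, a difference of 0.00 with a 95% confidence interval of -0.27 to 0.27. The 2 clusters of Ndufs1, the largest iron-sulfur subunit, lie on opposite strands, and which of them is that of the gene was not settled here. Their log2 fold changes were 0.09 on the plus and 0.075 on the minus strand. Ndufa13 lay at the median of the complex, as did Ndufv1 and Ndufb4. The arrays of Ndufa13 read 11.16 and 11.20 in wild type and 11.21 and 11.15 in the knockout. In these clusters of Ndufv1, Ndufs1 and Ndufa13 the genotypes overlapped. Among other iron-sulfur core subunits, Ndufs8 (-0.055) overlapped too, whereas Ndufv2 (0.155) was higher and Ndufs7 (-0.05) lower on both knockout arrays, with limma p-values of 0.222 and 0.641.

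Among the accessory subunits of complex I, Ndufa5 had the lowest p of all members. It encodes a subunit of the peripheral arm, and its cluster (17465201) lies on the minus strand of chromosome 6, from 24518666 to 24528013 in the coordinates of the array file, on the strand of the gene. The log2 signals were 7.87 and 7.89 in wild type and 8.26 and 8.29 in the knockout. The genotypes were separated by far more than the gaps between arrays of a genotype, which were 0.02 and 0.03. The log2 fold change was 0.395 (SE 0.101, 95% confidence interval 0.145 to 0.645), or 1.31-fold. With an unadjusted limma p of 0.00858 and an adjusted p of 0.834, Ndufa5 did not pass the correction over the array. It stayed between 0.355 and 0.431 under the alternatives, with unadjusted p-values from 0.00208 to 0.0353, and its promoter, printed above, held none of the 3 cores.

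Other complex I members differed in either direction without an unadjusted p below 0.05. Ndufa11, a membrane arm subunit, read 7.20 and 6.99 in wild type and 6.87 and 6.78 in the knockout (log2 fold change -0.27, limma p 0.0689), and both knockout values were below both wild-type values. Its second cluster, on chromosome 16 and outside the gene, read 10.72 and 10.87 in wild type and 10.90 and 10.71 in the knockout, a difference of 0.01. The membrane arm subunits Ndufc1 and Ndufb11 also lay lower in both knockout arrays. Ndufc1 read 7.73 and 7.70 against 7.55 and 7.44 (log2 fold change -0.22, limma p 0.0854), and Ndufb11 read 7.29 and 7.45 against 7.21 and 7.04 (-0.245, limma p 0.0929). Ndufb2, of the same arm, lay on the other side, at 7.86 and 7.54 in wild type and at 7.91 and 8.01 in the knockout (0.26, limma p 0.116). The lowest log2 fold change of complex I, -0.30 for Ndufv3, rested on 1 array. This small subunit of the NADH-binding module read 8.04 and 8.20 in wild type and 8.05 and 7.59 in the knockout, and without the second knockout array its log2 fold change was -0.07. In complex I as a whole the genotypes did not overlap in 15 clusters (36.6%, against 34.1% of all clusters), 7 higher and 8 lower in the knockout. The higher ones included Ndufa1 (0.125), Ndufb3 (0.07) and Ndufb5 (0.105), and the lower ones Ndufa2 (-0.09), Ndufa10 (-0.135) and Ndufb9 (-0.15), each with an unadjusted limma p above 0.05. Ndufb3 shows how close such values can be, at 7.44 and 7.46 in wild type and at 7.51 and 7.53 in the knockout.

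**Figure D2:**
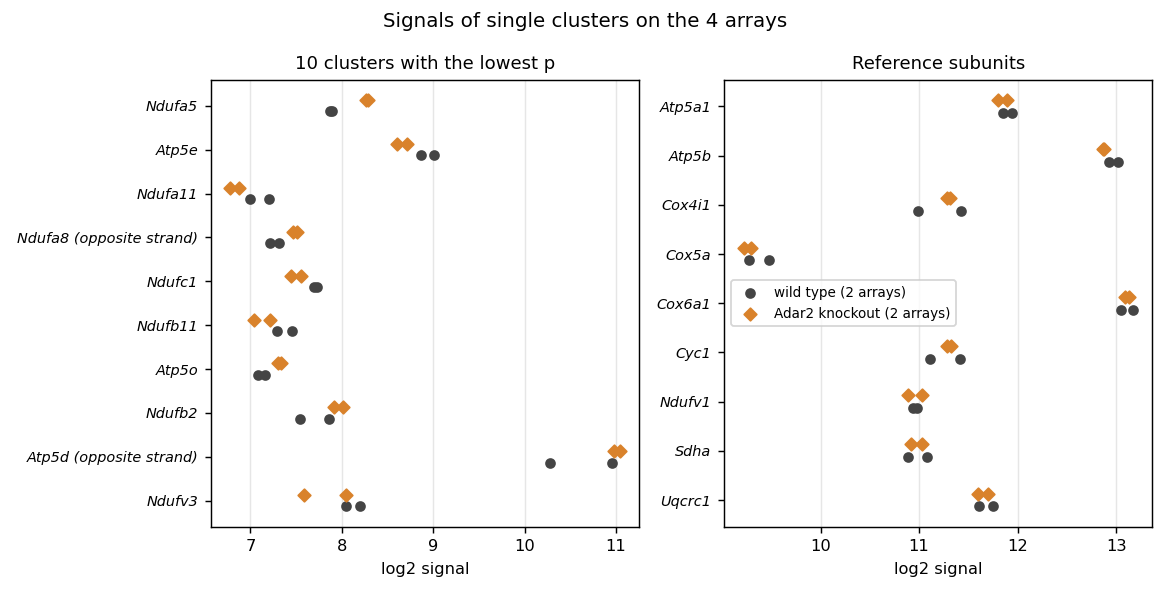
Log2 signal on each of the 4 arrays (x axis) for the 10 member clusters with the lowest limma p (left) and for 9 reference subunits (right). Grey circles are the 2 wild-type arrays and orange diamonds the 2 knockout arrays; Ndufa5 is set apart at 7.87 and 7.89 against 8.26 and 8.29, while the genotypes overlap for all of the reference subunits shown except Atp5b.

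Complex II, the succinate dehydrogenase, is the only complex with all of its subunits in the nucleus and also serves the citric acid cycle. Its 4 clusters had a median log2 fold change of -0.06, from -0.17 for Sdhd to 0.095 for Sdhb. Sdha, the flavoprotein, read 11.08 and 10.89 in wild type and 10.92 and 11.03 in the knockout, so that the genotypes overlapped fully (-0.01, 95% confidence interval -0.31 to 0.29). Sdhb, the iron-sulfur subunit, was the only one of the 4 without overlap, at 9.68 and 9.72 in wild type and at 9.81 and 9.78 in the knockout (limma p 0.388). The membrane anchors Sdhc and Sdhd had log2 fold changes of -0.115 and -0.17.

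Complex III, the cytochrome bc1 complex, had a median log2 fold change of 0.045 over 10 clusters, which was -0.09 without the first wild-type array and 0.128 without the second. The catalytic subunits Cyc1 (cytochrome c1) and Uqcrfs1 (the Rieske protein) had log2 fold changes of 0.035 and 0.06, and the core protein Uqcrc1 one of -0.03. Cyc1 read 11.11 and 11.42 in wild type and 11.32 and 11.28 in the knockout, with both knockout arrays inside the span of the wild-type arrays. Uqcrb, a subunit at the ubiquinone site, had the lowest log2 fold change of all members, -0.34 (SE 0.27, limma p 0.25). Its signals were 6.58 and 6.47 in wild type and 6.60 and 5.77 in the knockout, and the low value belonged to the second knockout array alone. Without that array the log2 fold change of Uqcrb was 0.075. The other cluster of Uqcrb, on chromosome 5, read from 11.24 to 11.66 and had a log2 fold change of 0.055. Uqcr10 differed most between the wild-type arrays among the members with a higher second array, at 7.69 and 8.48, and both knockout arrays, at 8.13 and 7.96, lay between them.

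Cytochrome c, the carrier between complexes III and IV, had a median of 0.19, but its 5 clusters all belong to Cycs and are not independent. The median was 0.015 without the second knockout array and 0.095 without the first wild-type array. Of these, 3 lie outside the gene on chromosomes 5 and 19, and a cluster on chromosome 6 and one on chromosome 19 hold the same value on every array, 8.86 and 9.22 in wild type and 9.01 and 9.62 in the knockout. The second cluster over the gene itself read 6.85 and 6.62 in wild type and 6.82 and 6.74 in the knockout, a log2 fold change of 0.045 (SE 0.12). The genotypes overlapped in all 5 clusters, and the lowest limma p was 0.281. Without the second knockout array the log2 fold change of the shared values was -0.03. Of the 5 clusters 2 were marked as able to cross-hybridize, and Cycs has near-identical copies in the genome, so that these signals are uncertain.

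Complex IV, cytochrome c oxidase, had a median log2 fold change of 0.045 over 21 clusters, within -0.14 and 0.12. The median was -0.01 without the first wild-type array and 0.005 after median centring. Cox4i1, the ubiquitous form of the regulatory subunit that binds ATP, read 10.99 and 11.43 in wild type and 11.31 and 11.28 in the knockout (0.085, 95% confidence interval -0.32 to 0.49). The wild-type arrays thus differed more from each other than the genotype means. Cox6a1 read 13.05 and 13.17 in wild type and 13.13 and 13.09 in the knockout, a difference of 0.00. Whether probes this bright were saturated was not tested. Cox5a had a log2 fold change of -0.115 (limma p 0.378) and Ndufa4, named for complex I but now counted in complex IV, one of 0.09. The genotypes did not overlap in 1 of the 21 clusters (4.76%, against 34.1% of all clusters), that of Cox6b1, which read 10.80 and 10.77 in wild type and 10.90 on both knockout arrays (0.115, limma p 0.3).

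Isoforms that other tissues or particular cell types use are part of this group, and they served to look for a switch of isoform. They are Cox4i2 (lung and pericytes), Cox6a2, Cox7a1 and Cox8b (heart and skeletal muscle), Cox6b2, Cox7b2 and Cox8c (testis) and Ndufa4l2 (induced by hypoxia). The 8 clusters had a median log2 fold change of 0.065, from -0.105 for Cox8b to 0.12 for Cox7b2. None passed an unadjusted limma p of 0.05. Cox7b2 read 4.0 and 3.37 in wild type and 3.64 and 3.97 in the knockout, and Cox8c read 4.26 and 4.35 in wild type and 4.32 and 4.51 in the knockout. These signals lay within 3.44 to 5.16, the range of the 7 clusters of Y-linked genes that female mice lack, except for the lowest value of Cox7b2, so no level above background can be given for them. The other isoforms read above that range. Cox4i2 read 7.69 and 7.42 in wild type and 7.64 and 7.54 in the knockout. Cox6a2 read 8.33 and 8.45 in wild type and 8.54 and 8.33 in the knockout. Skeletal muscle markers, 10 clusters, had array means of 5.56 to 5.70 and a median of 0.06 in log2 fold change, and Myh2 alone had an unadjusted limma p below 0.05 (0.37, limma p 0.0168). The part of muscle RNA in the heart and muscle isoforms was not tested.

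Complex V, the ATP synthase, had a median log2 fold change of 0.035 over 19 clusters, with 10 above 0 and 9 below. The median was -0.055 without the first wild-type array, and -0.05 with 1 cluster per gene symbol. Atp5b, the catalytic beta subunit, read 13.02 and 12.93 in wild type and 12.87 and 12.88 in the knockout (-0.10, 95% confidence interval -0.36 to 0.16). Its 2 knockout values were lower than its 2 wild-type values, but the limma p was 0.376. Atp5a1, the alpha subunit, had a log2 fold change of -0.05 (limma p 0.659). Atp5o, which links the head to the stalk, read 7.08 and 7.16 in wild type and 7.33 and 7.30 in the knockout (0.195, limma p 0.111). The genes of the c ring, Atp5g1, Atp5g2 and Atp5g3, which encode the same mature protein, had log2 fold changes of -0.15, 0.07 and 0.06 in the clusters over the genes. Atp5g1 was the one with the widest gap between wild-type arrays, at 6.10 and 6.75, with 6.23 and 6.32 in the knockout.

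Atp5e, the epsilon subunit of the central stalk, was the member with the second lowest p. Its cluster (17395165) lies on the minus strand of chromosome 2, from 174461072 to 174464105 in the coordinates of the array file. It read 8.87 and 9.01 in wild type and 8.60 and 8.71 in the knockout, without overlap. The log2 fold change was -0.285 (SE 0.11, 95% confidence interval -0.565 to -0.0047), or 1.22-fold, with an unadjusted limma p of 0.0473 and an adjusted p of 0.834. It was no longer past an unadjusted p of 0.05 after quantile normalization (0.0812) or cyclic loess (0.0844), without shrinkage (0.0853), or with any 1 array left out (0.0587 to 0.163). A second cluster, on the opposite strand of Atp5e, read 6.99 and 7.07 in wild type and 7.08 and 7.12 in the knockout (0.07, limma p 0.527).

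Several genes had further clusters on their opposite strand or away from the gene. Among the 108 clusters 97 lay inside the RefSeq span of the gene they are named for and 11, of 9 genes, lay elsewhere. The strand of 18 clusters was not compared with that of the gene, both clusters of Ndufs1 among them. Of the clusters whose strand was compared, those of Atp5d, Atp5e, Ndufa8 and Ndufa12 included 1 each on the opposite strand, and the log2 fold changes of these 4, 0.07 to 0.39, were above those of the same-strand clusters in all 4 pairs. For Atp5d, the delta subunit of the stalk, the opposite-strand cluster read 10.28 and 10.96 in wild type and 10.98 and 11.04 in the knockout (0.39, limma p 0.135), and the same-strand cluster read 11.35 and 11.34 against 11.29 and 11.19 (-0.105). The low first wild-type array set the former, since without it the log2 fold change was 0.05. For Ndufa8 the opposite-strand cluster read 7.21 and 7.31 in wild type and 7.51 and 7.46 in the knockout (0.225, limma p 0.0797), against -0.095 on the same strand. For Atp5h (-0.08 and -0.08), Cox6c (0.08 and 0.07), Atp5g2 (0.07 and 0.035), Cox5b (-0.02 and -0.115) and Ndufs6 (-0.19 and -0.125), the cluster over the gene and the one elsewhere had log2 fold changes of the same sign. For Cox7b (-0.14 and 0.005), Ndufa11 and Uqcrb they did not. Clusters elsewhere had a median of 0.035, and 5 of the 11 were marked as able to cross-hybridize (45.5%, against 5.56% of all members and 14.7% of the array). As a group they had the stronger signals, with array medians of 11.20 to 11.44, against 8.66 to 8.98 for clusters on the strand of their own gene. With only the clusters inside their own gene, and without the 4 found on its opposite strand, the median over the remaining 93 members, of which 18 had no strand compared, was 0.00, and that of complex V was -0.05.

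The assembly factors of complex I did not differ beyond their error. Ndufaf1, Ndufaf2, Ndufaf3 and Ndufaf4 had log2 fold changes of -0.12, -0.005, 0.00 and -0.05. Cox7a2l had 0.095 and Cox4nb, outside the chain, 0.115. The lowest unadjusted limma p of these 8 clusters was 0.321, and their median was -0.005.

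The members also varied between arrays of the same genotype, more so in wild type than in the knockout. The second wild-type array was higher than the first in 74 of 108 clusters (68.5%, against 49.3% of all clusters), with a median difference of 0.10. It was higher by at least 0.3 in 19 members (17.6%, against 9.15% of all clusters) and lower by at least as much in 4 (3.70%, against 7.43%). The 19 came from all 5 complexes and cytochrome c, among them Uqcr10, Atp5g1, Ndufa7, Uqcrq and Cox4i1. Choroid plexus markers were higher on the same array by a median of 0.39, and their part in this difference was not tested. Ndufs4, a subunit of the peripheral arm, went the other way, from 10.72 to 9.92, and its knockout arrays read 10.43 and 10.42. Between the knockout arrays the median difference was -0.04, with the second array higher in 42 members (38.9%, against 46.6% of all clusters). The median absolute difference over the members was 0.16 within wild type and 0.10 within the knockout, and it lay between 0.115 and 0.15 for the 4 pairs of different genotype. The mean over the members was 9.10 and 9.19 on the wild-type arrays and 9.16 and 9.14 on the knockout arrays, so that both knockout means lay between the wild-type means. Without the first wild-type array the median log2 fold change of the members was -0.05, and without the second it was 0.05.

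**Figure D3:**
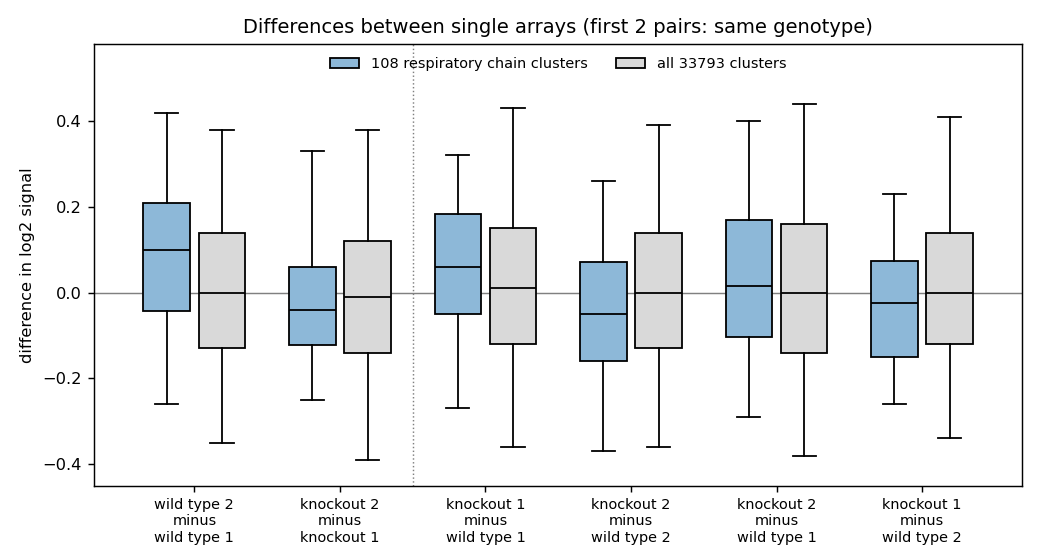
Difference in log2 signal between single arrays (y axis) for each pair of arrays (x axis), for the 108 members (blue) and all 33793 clusters (grey). Lines are medians, boxes the middle 50% and whiskers the 5th and 95th percentiles; the pair of wild-type arrays has the median of the members furthest from 0, at 0.10.

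The subunits encoded by mitochondrial DNA, which assemble with the nuclear ones, were matched by description for 10 clusters. Their median log2 fold change was 0.02, none had an unadjusted limma p below 0.05, and 9 of the 10 lay between -0.085 and 0.065. NADH dehydrogenase subunit 1 read 13.33 on both wild-type and 13.36 on both knockout arrays. These 9 clusters read from 12.93 to 13.72, where the highest signal of any cluster was 13.86, and whether such bright probes were saturated was not tested. Members such as Cox6a1 (13.05 to 13.17) and Atp5b (12.87 to 13.02) reached into that range, and saturation was not tested for them either. NADH dehydrogenase subunit 6, the complex I subunit encoded on the other strand of mitochondrial DNA, read 8.72 and 9.18 in wild type and 9.10 and 10.50 in the knockout (0.85, limma p 0.106), and its high value belonged to the second knockout array alone.

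Other genes of mitochondrial energy metabolism were described in the same way. Further assembly factors, 25 clusters, had a median of -0.035, with 0 clusters higher and 1 lower at an unadjusted limma p below 0.05. That cluster was Bcs1l, which inserts the Rieske protein into complex III and read 8.89 and 8.86 in wild type and 8.68 and 8.44 in the knockout (-0.315, limma p 0.0446). Factors that control mitochondrial genes, 22 clusters with Nrf1 (-0.125), Gabpa (-0.035), Yy1 (-0.025), Ppargc1a (-0.08) and Tfam (-0.065) among them, had a median of -0.02 and none past that threshold. By promoter core, only members on the strand of their own gene, and of genes with a promoter window, were compared. Those with the NRF1 core had a median log2 fold change of 0.05 over 12 clusters, against -0.0025 over 56 without. For the ETS core the medians were -0.0025 and 0.00, and for the YY1 core -0.06 and 0.00.

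Proteins of the mitochondrial ribosome, which translates the mitochondrially encoded subunits, had a median of -0.055 over 86 clusters, with 1 higher and 3 lower at an unadjusted limma p below 0.05. Mrps27 read 8.21 and 8.03 in wild type and 7.64 and 7.62 in the knockout (-0.49, limma p 0.00553, adjusted p 0.834). Mrps10 (-0.375) and Mrpl49 (-0.355) were the other lower ones and Mrps17 (0.335) the higher one. Enzymes of the citric acid cycle had a median of -0.07 over 18 clusters and those of glycolysis one of -0.045 over 21, and none of either list had an unadjusted limma p below 0.05. The share past this threshold in each list can be set beside 3.64% higher and 2.31% lower of all clusters. No difference between these lists and the members was tested.

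**Figure D4:**
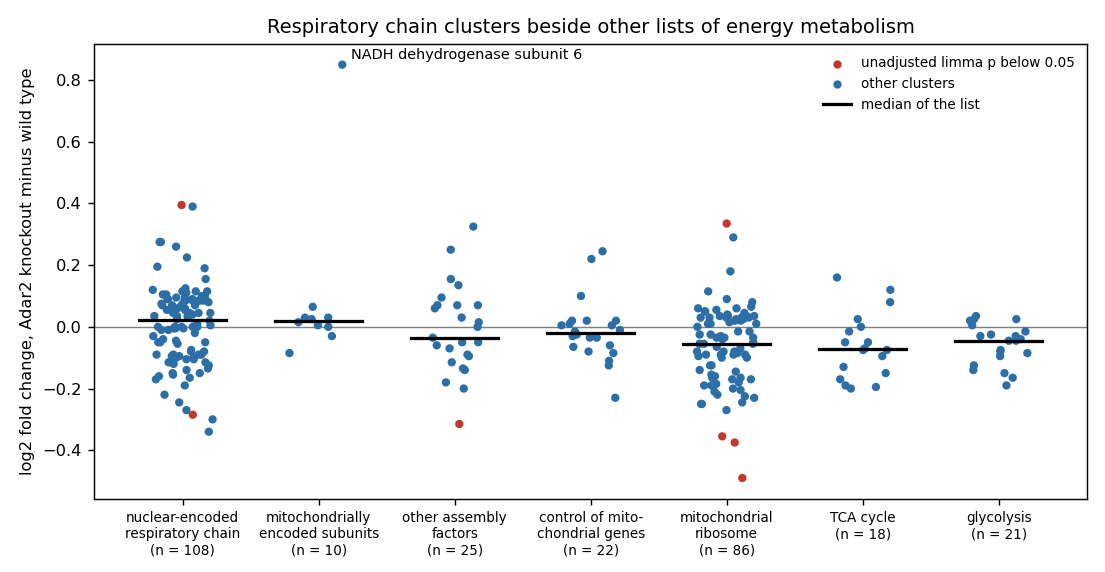
Log2 fold change (y axis, Adar2 knockout minus wild type) of the 108 members beside 6 lists of genes of energy metabolism (x axis, n clusters each). Points are clusters, black lines are medians and red marks an unadjusted limma p below 0.05; the medians lie between -0.07 and 0.02, and NADH dehydrogenase subunit 6 stands at 0.85.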

How the data were processed

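Total RNA of whole brain from 2 wild-type and 2 Adar2 knockout mice was analysed on Affymetrix whole-transcript arrays, with 1 array per sample and groups taken from the sample titles. In the table that the authors deposited, 33793 transcript clusters have 4 columns of normalized log2 signals, 1 per array, rounded to 2 decimals. The submitters' processing notes name Affymetrix Expression Console and RMA, without versions. The table also holds averages per genotype, a ratio, a fold change and p-values computed by the authors, which were not used. Array signals have no read depth, and the number of arrays limits the precision.

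A linear model with a term for genotype alone was fitted to these values in R 4.3.3 with limma 3.58.1 (lmFit, eBayes), without filter or further normalization. Tests were two-sided and p-values were adjusted over the 33793 clusters by Benjamini-Hochberg. The moderated variances had 3.79 prior degrees of freedom and a prior SD of 0.125. The fits were checked on simulated data. Tables and plots were made with Python 3.11.15, pandas 2.3.3, numpy 2.4.6 and matplotlib 3.10.9.

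The members and all comparison lists were chosen with earlier results of these data known. Named were 14 reference subunits (1 of them is not reported here) and the tissue-restricted isoforms, the 10 members with the lowest p, the 3 with the largest rise and the 3 with the largest fall, the 3 that differed most between arrays of a genotype, the member nearest the median of each complex, and Adarb1. Other genes were named after their values were seen. Apart from COX2, the table gives no symbols for mitochondrially encoded subunits. All were therefore matched by their description on the mitochondrial chromosome after this was seen. The array file names no genome build for its coordinates. Whether a cluster lies in its own gene was judged from RefSeq gene spans of GRCm38.p6, and promoter windows came from RefSeq of the same build.

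The alternatives tried were cyclic loess or quantile normalization, centring of the arrays on their medians, only clusters above the median signal, a block for the replicate number, an intensity trend in eBayes, no shrinkage, each array left out in turn, no clusters that can cross-hybridize, 1 cluster per gene symbol, and only clusters with 1 symbol that names a subunit. Counting clusters with shared values once, and keeping only clusters inside their own gene, were added after seeing the data.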

Additional observations from a re-analysis of the deposited data

How the results depend on the processing

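The count of members past an adjusted limma p of 0.05 was 0 in every alternative. At an unadjusted p below 0.05 the 2 members (1.85%, against 5.95% of all clusters) became 1 after quantile and 1 after cyclic loess normalization (0.926%, against 5.44%), 3 after median centring (2.78%, against 6.01%), where Ndufa11 was added, 4 without shrinkage (3.70%, against 5.61%), and 1 to 4 with an array left out (against 3.61% to 5.33%). Ndufa5 was past this threshold in every alternative, and Atp5e was not in 7. Of 521 values of the named clusters under alternatives, 506 kept their side of the threshold, 8 were newly past it and 7 no longer. None that was past it changed sign, and 40 others did. Genotypes that did not overlap, 26 members with all arrays, became 58 to 76 with an array left out (53.7% to 70.4% of members, against 64.1% to 67.2% of all clusters), where 1 array stands for a genotype and its spread is taken from the other. Of these, 24 were higher and 43 lower without the first wild-type array, 49 and 27 without the second, 24 and 34 without the first knockout array, and 38 and 25 without the second, against 31.1% to 34.9% of all clusters in either direction. There were 36 after median centring (33.3%, against 37.1%), 27 after quantile normalization (25%, against 33.4%) and 29 after cyclic loess (26.9%, against 34.3%). With an array left out the overall median lay between -0.0525 (without the first wild-type array) and 0.0475. The medians ranged from -0.065 to 0.03 in complex I, from -0.09 to 0.128 in complex III, from -0.01 to 0.06 in complex IV, from -0.055 to 0.03 in complex V and from -0.0075 to 0.045 in the assembly group, with each lowest value reached without the first wild-type array, as was -0.0875 in complex II, whose highest was -0.0175. In cytochrome c they ranged from 0.015 (without the second knockout array) to 0.345. Median centring gave -0.045 for the assembly group and 0.005 for complex IV, cyclic loess -0.0125 for complex II, and 1 cluster per gene or only clusters inside their gene -0.05 for complex V. The cause was not tested. The replicate number was also used as a block, although same-numbered arrays did not deviate together (Pearson's r 0.0516 over clusters), and gave 2 members past the unadjusted threshold (1.85%, against 5.01% of all clusters), a median of 0.02 and a lowest adjusted p of 0.795, so that it changed no call. The interval of the difference lay within 2-fold for 90 members without shrinkage, the lowest count among the alternatives that tested all 108.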
